A study of Mus musculus with 6 samples.

Results

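Genes of the ATF4 stress response and of serine synthesis were followed in resting macrophages with and without retinoid X receptors. They were taken by symbol from the count table, as 10 of its 45193 Ensembl genes: Atf4, Ddit3, Trib3, Chac1, Sesn2, Asns, Phgdh, Psat1, Shmt2 and Mthfd2. All 10 were found and all 10 passed the filter on low counts that left 12011 genes to test. Messenger RNA had been sequenced from mouse bone marrow-derived macrophages, cells grown out of marrow over 6 days in L929-conditioned medium, which supplies the growth factor CSF-1. Both genotypes carry the strain label C57BL/6J, and each has 3 libraries. One is WT and the other is RXRafl/flLysMCre RXRb-/-, in which Cre from the lysozyme M locus (Lyz2), active in myeloid cells, deletes the loxP-flanked Rxra on an Rxrb-null background. Cells of both genotypes were moved to serum-free medium on the evening of day 5 and kept for 3 hours with DMSO, the vehicle, so neither a receptor ligand nor a stress agent had been added to any library. The replicates are called biological in the labels but no animals are named, and p-values therefore refer to the spread between libraries, whatever its source.

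ATF4 is a transcription factor made when stress kinases phosphorylate the initiation factor eIF2, which lowers general translation but favours translation of the Atf4 message. Its targets include regulators that tune or end the response, amino acid transporters, tRNA synthetases, and enzymes that make asparagine, serine and glycine. The enzymes PHGDH and PSAT1 make serine from a glycolytic intermediate, and SHMT2 and MTHFD2 pass its carbon to folates in mitochondria, which feeds nucleotide synthesis in growing cells. Because ATF4 is set largely at translation, the level of its message is not a measure of the protein.

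Total counts ran from 7880320 to 14957253 reads in the WT libraries and from 17250051 to 25091019 in the knockout libraries, so every knockout library was deeper than every WT library. Rxrb fell to 13.89% of its WT level. Rxra counts over the whole gene did not differ (adjusted p = 0.588) and do not check the deletion between the loxP sites. Lyz2 fell to 0.19% of its WT level. No Cre is described for the WT cells, so loss of the receptors, loss of Lyz2 and presence of Cre cannot be told apart. Xist had 0 reads in each WT library and 209 to 267 CPM (reads scaled to one common library total, with trimmed mean of M-values or TMM factors) in the knockout libraries. The Y-linked genes Ddx3y, Eif2s3y, Kdm5d and Uty stood at 46.9% to 59.6% of their WT level in the knockout. The labels used here give no sex, and genotype and sex make-up cannot be told apart. All 7 macrophage markers, Adgre1 and Csf1r among them, were expressed, with a summed level of 6230 to 7216 CPM in WT and 7148 to 8369 CPM in the knockout. Of these 7, Csf1r (log2 fold change 0.40), Itgam (0.65) and Cd14 (1.08) were higher, Fcgr1 (-0.37) was lower and 3 fell short of the threshold, and their part in the results on the members was not tested. Summed neutrophil markers reached 1058 to 1273 CPM over the 6 libraries. Summed markers of dendritic, B, T and NK, mast and erythroid cells stayed at or under 6.14 CPM, and those of fibroblasts at or under 11.2 CPM. In bulk RNA, fewer cells of a type and less RNA per cell cannot be told apart.

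Of the 5 enzymes of asparagine, serine and folate metabolism, 3 had lower messages in the knockout, and no member was higher. Asns, Mthfd2 and Shmt2 passed the test, at 64.2%, 73.5% and 81.4% of their WT means. The enzyme genes Psat1 and Phgdh did not pass, nor did Atf4, Ddit3, Trib3, Sesn2 and Chac1. The members called lower are 3 of 10, where 9.61% of all tested genes were called lower. The members called higher are 0 of 10, where 9.77% were called higher, and 19.4% were called in either direction (edgeR quasi-likelihood, Benjamini-Hochberg adjusted p under 0.05). The median log2 fold change was -0.15 over the 10 members and -0.0048 over all tested genes. It was -0.29 over these 5 enzymes and -0.02 over the other 5. This division was not among the planned comparisons, and whether these groups differ was not tested. The groups did not overlap in 4 members, Asns, Mthfd2, Shmt2 and, by the narrowest margin, Psat1. All 4 were lower in the knockout, that is 40% of the members, where 17.9% of all tested genes were lower without overlap and 36.9% did not overlap in either direction.

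**Figure D1:**
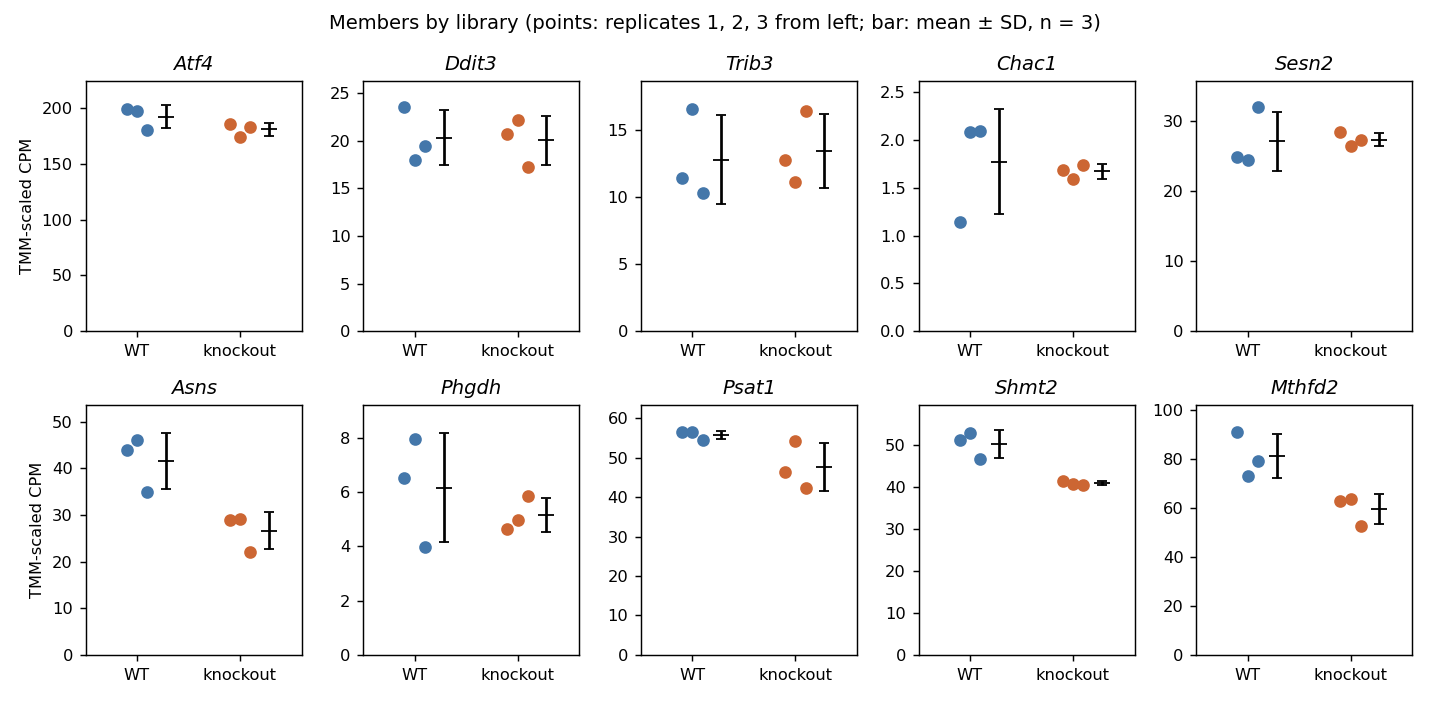
TMM-scaled CPM of each member in the 6 libraries, WT in blue and knockout in orange, with replicates 1, 2 and 3 from left to right and the mean ± SD (n = 3) beside them; each panel has its own axis from 0. The members in the upper row overlap between genotypes, and Asns, Psat1, Shmt2 and Mthfd2 in the lower row do not.

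Asns (ENSMUSG00000029752, chromosome 6, 7675169 to 7693254, minus strand, build GRCm38 here and for the other genes) encodes asparagine synthetase, which makes asparagine from aspartate and glutamine and is a classic target of ATF4. It stood at 43.9, 46.0 and 34.9 CPM in WT replicates 1, 2 and 3 and at 28.9, 29.2 and 22.0 CPM in knockout replicates 1, 2 and 3. The highest knockout value, in replicate 2, was under the lowest WT value, in replicate 3. The WT mean was 41.6 ± 5.93 CPM and the knockout mean 26.7 ± 4.07 CPM (SD, n = 3). The log2 fold change was -0.63 (SE 0.136, 95% confidence interval -0.92 to -0.33, edgeR adjusted p = 0.00604). Asns kept its call in all 16 alternative fits, with adjusted p from 6.92e-06 to 0.0463. Within a library, where scaling plays no part, Asns had 22.1%, 23.3% and 19.3% as many reads as Atf4 in WT and 15.6%, 16.8% and 12.0% in the knockout.

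Mthfd2 (ENSMUSG00000005667, chromosome 6, 83305691 to 83325908) encodes the mitochondrial methylenetetrahydrofolate dehydrogenase that is low in most adult tissues and high in dividing and activated cells. Its levels were 91.0, 73.2 and 79.3 CPM in the WT replicates and 62.8, 63.6 and 52.5 CPM in the knockout replicates. The groups lay apart, WT replicate 2 and knockout replicate 2 being nearest to each other. The WT mean was 81.1 ± 9.06 CPM and the knockout mean 59.6 ± 6.22 CPM, with a log2 fold change of -0.44 (SE 0.107, interval -0.68 to -0.21, edgeR adjusted p = 0.011). The call was lost without WT replicate 1, the highest library (-0.36, edgeR adjusted p = 0.066).

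Shmt2 (ENSMUSG00000025403, chromosome 10, 127517123 to 127522444) encodes the mitochondrial serine hydroxymethyltransferase, which splits serine into glycine and a folate-bound carbon. It stood at 51.3, 53.0 and 46.6 CPM in WT and at 41.5, 40.8 and 40.6 CPM in the knockout. The knockout libraries were nearly equal and all lay below WT replicate 3, the lowest of WT. The log2 fold change was -0.29 (SE 0.0899, interval -0.49 to -0.10, edgeR adjusted p = 0.0378). This call sat close to the threshold. It was lost without any library other than WT replicate 3, with adjusted p from 0.0694 to 0.124, after thinning all libraries to the shallowest (0.0739), with no filter on low counts (0.103) and with offsets for length and GC content of the transcripts (0.0534). Shmt2 shares 32 exon bases with Ndufa4l2 on the other strand, and whether the counting used strand is not given in the sources used here.

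Set against Atf4 reads in the same library, Mthfd2 had 45.8%, 37.1% and 43.9% as many in WT and 33.9%, 36.6% and 28.7% in the knockout, and Shmt2 had 25.8% to 26.8% in WT and 22.2% to 23.4% in the knockout. Neither overlapped between genotypes on this measure, whereas Psat1 did (28.4% to 30.2% in WT, 23.1% to 31.3% in the knockout).

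The other 2 enzymes act earlier, in making serine. Psat1 (ENSMUSG00000024640, chromosome 19, 15904678 to 15947337), the phosphoserine aminotransferase gene, stood at 56.4, 56.5 and 54.6 CPM in WT and at 46.3, 54.4 and 42.3 CPM in the knockout. The 3 WT libraries were close together, and knockout replicate 2 was barely under the lowest of them, WT replicate 3. That gap is smaller than the counting error of either library (2.7% and 3.46%). The log2 fold change of -0.23 (interval -0.45 to -0.0023) had an unadjusted p = 0.048 and an edgeR adjusted p = 0.15. Phgdh (ENSMUSG00000053398, chromosome 3, 98313170 to 98339990), which encodes the first enzyme of the pathway, was among the least expressed members, at 6.54, 7.96 and 3.98 CPM in WT and 4.65, 4.96 and 5.87 CPM in the knockout. The knockout values lay inside the WT range, and the log2 fold change of -0.20 (interval -0.71 to 0.30, edgeR adjusted p = 0.592) leaves room for a fall to 0.611 times or a rise to 1.24 times the WT level. Phgdh had 61 to 63 reads in each WT library, a counting error of 12.6% to 12.8%.

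The messages of the transcription factors were at like levels in both genotypes. Atf4 (ENSMUSG00000042406, chromosome 15, 80255184 to 80257541) was the most abundant member, at 199, 197 and 181 CPM in WT and 186, 174 and 183 CPM in the knockout. Knockout replicates 1 and 3 lay within the WT range. Its log2 fold change was -0.09 (SE 0.078, interval -0.26 to 0.08, edgeR adjusted p = 0.477), which bounds any fall at 0.837 times the WT level. Ddit3 (ENSMUSG00000025408, chromosome 10, 127290774 to 127296288) encodes CHOP, a factor induced by ATF4 that promotes cell death under lasting stress. It stood at 23.6, 18.0 and 19.4 CPM in WT and 20.7, 22.1 and 17.2 CPM in the knockout. The groups overlapped, with knockout replicates 1 and 2 inside the WT range (log2 fold change -0.02, interval -0.31 to 0.27, edgeR adjusted p = 0.94). Ddit3 shares 68 exon bases with the tRNA synthetase gene Mars and 13 with Gm4189, both on the other strand, so a small part of its reads is uncertain.

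Among the other members downstream of ATF4 and CHOP, Trib3, Sesn2 and Chac1 overlapped between the genotypes as well. Trib3 (ENSMUSG00000032715, chromosome 2, 152337422 to 152344032), a pseudokinase that feeds back on ATF4, stood at 11.4, 16.6 and 10.3 CPM in WT and 12.7, 11.1 and 16.4 CPM in the knockout. WT replicate 2 and knockout replicate 3 were the highest libraries, and the log2 fold change was 0.10 (interval -0.32 to 0.51, edgeR adjusted p = 0.776). Sesn2 (ENSMUSG00000028893, chromosome 4, 132492032 to 132510501) encodes sestrin 2, a leucine sensor that restrains the growth kinase mTORC1. It had 24.8, 24.4 and 31.9 CPM in WT and 28.3, 26.4 and 27.2 CPM in the knockout. WT replicate 3 was the highest library, and the log2 fold change was -0.0003 (interval -0.26 to 0.26, edgeR adjusted p = 0.999). Chac1 (ENSMUSG00000027313, chromosome 2, 119351229 to 119354381) encodes an enzyme that degrades glutathione and is strongly induced by ATF4 under stress. It was the least abundant member, with 11, 16 and 32 reads in WT and 29, 40 and 32 reads in the knockout, or 1.14 to 2.09 CPM and 1.59 to 1.74 CPM in turn. Its interval ran from -0.77 to 0.57 (log2 fold change -0.10, edgeR adjusted p = 0.858), which leaves room for a rise to 1.48 times or a fall to 0.587 times the WT level.

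**Figure D2:**
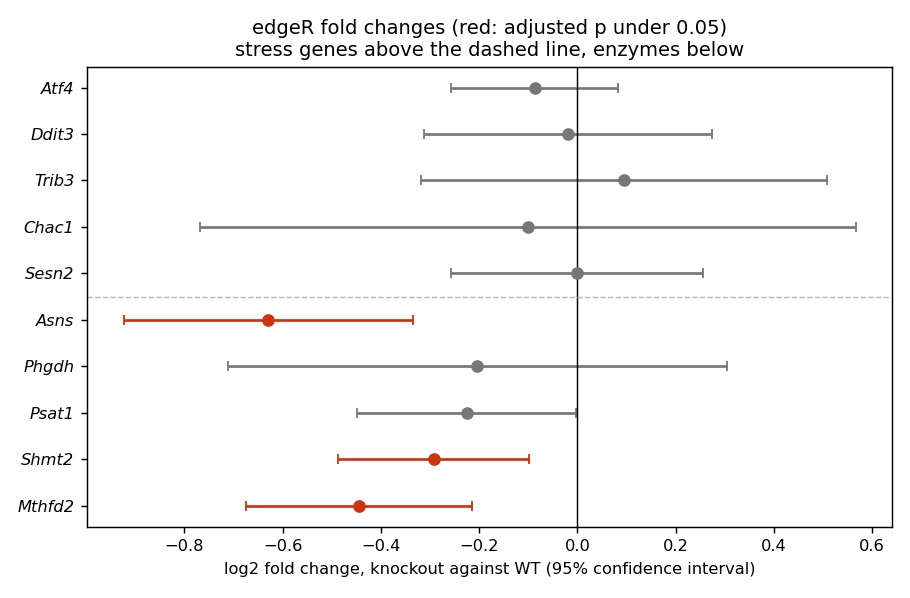
Log2 fold change of each member, knockout against WT, with the 95% confidence interval of the edgeR fit on the horizontal axis. The 5 enzymes of asparagine, serine and folate metabolism stand below the dashed line and the other 5 members above it. Asns (-0.63), Mthfd2 (-0.44) and Shmt2 (-0.29), in red, passed the test, and the interval of Chac1, from -0.77 to 0.57, is the widest.

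Levels between genes were compared per kilobase of exon. In WT the order was Atf4 (81.5 CPM per kilobase), Mthfd2 (23.3), Shmt2 (16.2), Asns (15.2), Psat1 (13.1), Ddit3 (11.9), Sesn2 (7.78), Trib3 (6.01), Phgdh (2.48) and Chac1 (1.08). The ranges of Atf4, Mthfd2, Phgdh and Chac1 over the 3 libraries did not overlap those of their neighbours. Those of Shmt2, Asns, Psat1 and Ddit3 overlapped in turn, as did those of Sesn2 and Trib3. In the knockout Asns stood at 9.76 CPM per kilobase, after Ddit3 (11.7) and Psat1 (11.2), but the ranges of these neighbours overlapped. In both genotypes the mitochondrial enzymes Mthfd2 and Shmt2 thus stood above Phgdh, which starts serine synthesis (2.08 CPM per kilobase in the knockout, against 17.1 for Mthfd2 and 13.2 for Shmt2).

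The stretches just before the annotated start are shown for the 3 genes that were lower. They are RefSeq promoter windows of build GRCm38.p6, on the gene's own strand, 5′ to 3′, covering the 100 bases before the start. The RefSeq starts used for Asns, Chac1, Ddit3, Mthfd2 and Psat1 lie inside the longer GENCODE gene spans given above, furthest for Mthfd2 and Psat1. Other start sites of these genes are therefore not shown. Capitals mark a match to TGATGNAA, the core of the composite element bound by ATF4 with C/EBP factors. Asns lies at chr6:7693210-7693309 (minus strand), Mthfd2 at chr6:83317605-83317704 (minus strand) and Shmt2 at chr10:127522445-127522544 (minus strand).
Asns: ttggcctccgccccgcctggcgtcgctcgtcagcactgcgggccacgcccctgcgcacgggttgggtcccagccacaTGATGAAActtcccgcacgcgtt
Mthfd2: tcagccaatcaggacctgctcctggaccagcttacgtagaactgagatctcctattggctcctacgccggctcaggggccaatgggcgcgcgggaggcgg
Shmt2: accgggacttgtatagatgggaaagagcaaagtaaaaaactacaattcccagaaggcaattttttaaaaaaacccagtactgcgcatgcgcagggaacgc

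Members that did not pass the test carried such letters too, shown by the bases around the match. Chac1 (chr2:119351023-119351082, plus strand) has TGATGNAA on the opposite strand, and Trib3 (chr2:152344061-152344119, minus strand) and Psat1 (chr19:15925162-15925221, minus strand) have the close variant TGGTGNAA, in capitals below.
Chac1: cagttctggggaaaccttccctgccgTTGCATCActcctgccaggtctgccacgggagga
Trib3: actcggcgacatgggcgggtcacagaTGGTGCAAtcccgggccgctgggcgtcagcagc
Psat1: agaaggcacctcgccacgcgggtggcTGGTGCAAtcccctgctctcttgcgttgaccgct

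Both strands of 300-base windows, 250 before to 50 after each start, were searched for 3 motifs. The core TGATGNAA was found in the windows of 3 members, Asns (first base 23 before the start), Chac1 (193 before) and Trib3 (15 after), and in 3.97% of 32851 windows of all genes. The variant TGGTGNAA was found in Trib3 and Psat1 and in 3.23% of all windows. Neither was found in the windows of Mthfd2 or Shmt2, which says only that these letters are not between 250 bases before and 50 bases after the start used. AGGTCA, the half-site of nuclear receptors, was found in the window of Ddit3 alone among the members and in 16.3% of all windows. The 3 motifs did not overlap one another in the members. Of the 3 genes with the core, Asns was called lower and Chac1 and Trib3 were not called.

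Upstream of ATF4, 14 genes were listed for the stress kinases, eIF2 (Eif2s1 alone), its exchange factor eIF2B and its phosphatases. Of these, 1 was higher, 0 were lower and 13 fell short of the threshold (median -0.08). The one that was higher was Gcn1 (Gcn1l1 in the count table), which encodes the activator of the amino acid sensor kinase GCN2. It stood at 71.9, 86.3 and 87.1 CPM in WT and 112, 113 and 123 CPM in the knockout, without overlap (log2 fold change 0.50, SE 0.0939, edgeR adjusted p = 0.00239). Gcn1 kept its call in all 16 alternative fits, but with the length and GC offsets its log2 fold change was 0.23, close to the threshold (edgeR adjusted p = 0.0474). The genes of the 4 kinases, chosen for their role after their values were seen, did not pass: Eif2ak1 (0.06), Eif2ak2 (-0.06), Eif2ak3 (0.17) and Eif2ak4, the GCN2 gene (0.26, interval -0.0028 to 0.52). Without WT replicate 3, 2 genes of the list were higher and 1 lower, and without WT replicate 2, 1 was lower. The subunit eIF2 gamma is made from an X-linked and a Y-linked gene, both chosen after their values were seen. Eif2s3y was lower, alongside the other Y-linked genes, going from 66.9 ± 5.62 to 31.4 ± 2.95 CPM (-1.09 on the log2 scale, edgeR adjusted p = 1.36e-05). Eif2s3x went from 16.4 ± 1.47 to 19.6 ± 0.502 CPM (0.26 on the log2 scale, edgeR adjusted p = 0.131).

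Other targets of ATF4 went both ways. Of 26 tested genes of 32 listed, 2 were higher, 4 were lower and 20 fell short of the threshold (median -0.07). The 6 not tested, Vldlr, Stc2, Fgf21, Cth, Cbs and Adm2, had too few reads. Gdf15, a stress cytokine gene, stood at 34.0, 38.0 and 32.5 CPM in WT and 23.6, 19.8 and 16.2 CPM in the knockout, and it was lower in all 16 alternative fits. Eif4ebp1, which encodes the translation repressor 4E-BP1, was lower (65.1 ± 3.34 CPM in WT, 42.8 ± 7.64 CPM in the knockout, -0.60 on the log2 scale, edgeR adjusted p = 0.00391). So was Aldh18a1, the first enzyme of proline synthesis (25.7 ± 1.37 to 17.8 ± 1.95 CPM, -0.53, edgeR adjusted p = 0.00651). Both kept their calls in all 16 alternative fits. Nupr1, a small stress-induced chromatin protein gene, was the other that was lower (-0.66, edgeR adjusted p = 0.0145), and it was the single gene to pass among 8 further transcription factors of the response. Nupr1 lost its call without WT replicate 1 or knockout replicate 2.

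The genes that were higher among these targets were Tnfrsf10b and Slc7a11. Tnfrsf10b encodes a death receptor for the ligand TRAIL and is induced by CHOP in stressed cells. It stood at 0.623, 1.30 and 1.57 CPM in WT and at 11.7, 10.7 and 8.37 CPM in the knockout, without overlap (log2 fold change 3.07, SE 0.265). Slc7a11, the cystine importer gene, stood at 21.0, 16.2 and 18.8 CPM in WT and 27.0, 25.8 and 22.1 CPM in the knockout (0.41, edgeR adjusted p = 0.0372). Slc7a11 fell short of the threshold when WT replicate 2, WT replicate 3, knockout replicate 1 or knockout replicate 2 was left out, after thinning, and with the length and GC offsets (0.25, edgeR adjusted p = 0.161). Genes with a place in several lists, such as Nupr1, Atf3, Atf5 and Ppp1r15a, are counted in each.

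Among 20 aminoacyl-tRNA synthetase genes, which charge tRNAs with amino acids, 2 were lower, 0 higher and 18 fell short of the threshold (median -0.11). The log2 fold change was below 0 in 16 of the 20 and in 50.7% of all tested genes, and this difference was not tested. Yars, for tyrosine, went from 74.2 ± 10.8 to 56.3 ± 5.47 CPM (-0.40, edgeR adjusted p = 0.0287) and Cars, for cysteine, from 93.9 ± 9.79 to 73.3 ± 4.72 CPM (-0.35, edgeR adjusted p = 0.0221). Neither passed when WT replicate 1, WT replicate 2, knockout replicate 1 or knockout replicate 2 was left out, and 4 genes of the list were lower without WT replicate 3.

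Of 26 tested genes for other enzymes and carriers of serine and folate metabolism, 3 were lower, 2 higher and 21 fell short of the threshold (median -0.06). Among those that were lower were Tyms, thymidylate synthase (26.1 ± 1.55 to 14.6 ± 3.11 CPM, -0.83, edgeR adjusted p = 0.00169) and Dld, a subunit that the glycine cleavage system shares with other complexes (-0.31, edgeR adjusted p = 0.0389). Tyms makes the thymidine nucleotide used for DNA. Aldh1l1, which releases folate-bound carbon as CO2 in the cytosol (12.5 ± 1.94 to 20.9 ± 4.73 CPM, 0.74, edgeR adjusted p = 0.00861), was among those that were higher. Tyms kept its call in all 16 alternative fits. Aldh1l1 lost its call without WT replicate 1. Over the list, 1 gene was lower without WT replicate 1 or knockout replicate 1, and 0 were higher without WT replicate 1. Dld lost its call without any library other than WT replicate 3 and with the length and GC offsets.

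Cell cycle genes were counted beside the members. Of 26 tested, 24 were lower, 0 higher and 2 fell short of the threshold (median -0.69), and their summed level was 3153 to 3356 CPM in WT and 2120 to 2375 CPM in the knockout. Knockout replicate 3, which had the lowest Asns, Mthfd2, Psat1 and Shmt2 values, also had the lowest summed cell cycle level, though Shmt2 was nearly equal over the knockout libraries. WT replicate 3 had the lowest WT sum and the lowest WT Asns, Psat1 and Shmt2, but Mthfd2 was lowest in WT replicate 2. WT replicate 1 had the highest sum and the highest Mthfd2, but Asns and Shmt2 were highest in WT replicate 2. The part of the cell cycle in the lower enzyme messages was not tested. Mpo and Elane, neutrophil granule genes of early myeloid cells chosen after their values were seen, were lower as well (-0.88 and -1.10). Of the 10 neutrophil markers, 1 was higher (Csf3r, 0.75), 3 were lower (Ngp, at -0.27, being the other) and 6 fell short. The part of these markers in the results was not tested either.

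The unfolded protein response of the endoplasmic reticulum, which shares the kinase PERK with the ATF4 response, had 20 tested genes, of which 1 was higher, 0 were lower and 19 fell short of the threshold (median 0.07). Ern1, which encodes the sensor IRE1 alpha, was the gene that was higher (48.5 ± 6.1 to 61.7 ± 1.41 CPM, 0.34, edgeR adjusted p = 0.0313). It kept its call without WT replicate 3 and lost it without any other library and with the length and GC offsets. Among paralogs of the members, Trib1, a pseudokinase that promotes breakdown of C/EBP factors, was lower (53.3 ± 3.36 to 38.9 ± 1.77 CPM, -0.46, edgeR adjusted p = 0.00382) in the reported fit and all 16 alternatives. Sesn1 (-0.05), Sesn3 (0.22), Chac2 (-0.22), Shmt1 (-0.35), Mthfd2l (-0.22) and Atf5 (-0.12) did not pass, and Trib2 was not tested. Sesn1 had 184 ± 11.6 CPM in WT, against 27.0 ± 4.24 CPM for Sesn2.

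**Figure D3:**
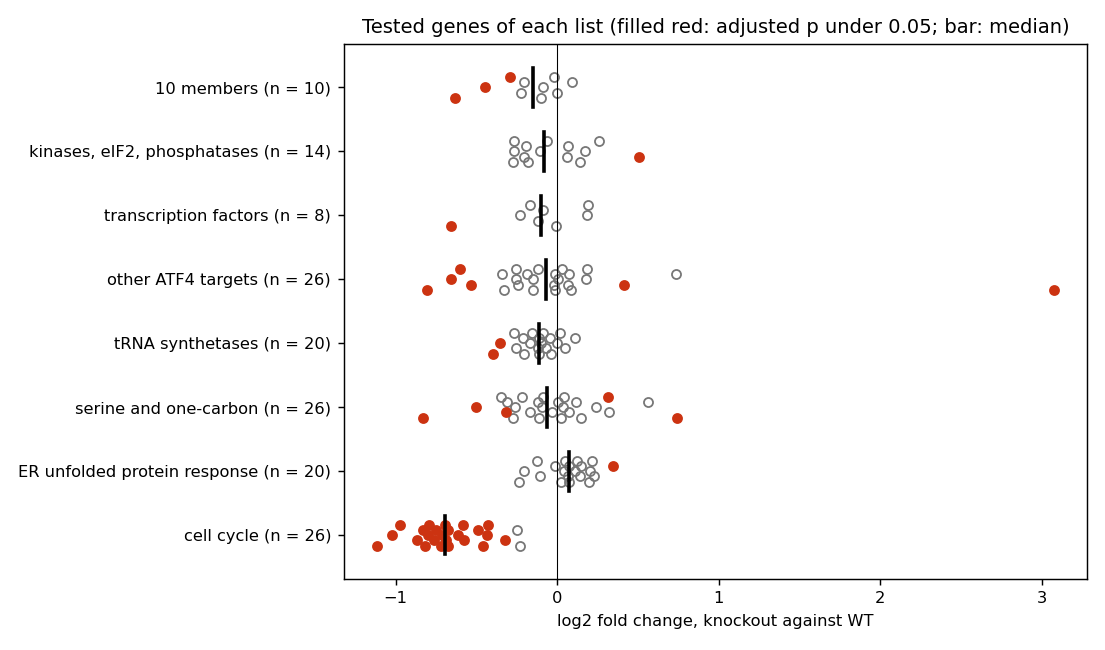
Log2 fold changes, knockout against WT, of the tested genes in the members and 7 lists, the paralogs of the members not being drawn, with genes past the test in filled red and the median of the list as a black bar. The cell cycle list has its median at -0.69, while the medians of the members and of the 6 other lists drawn lie between -0.15 and 0.07; Tnfrsf10b is the point at 3.07.

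**Figure D4:**
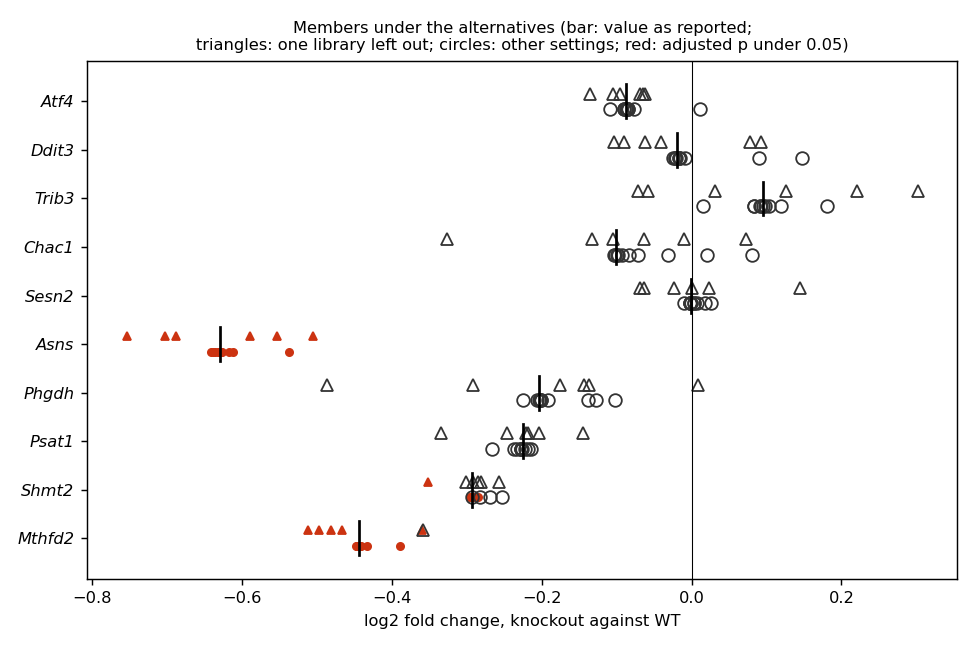
Log2 fold change of each member in 16 alternative fits (triangles, 1 library left out; circles, other settings; filled red, adjusted p under 0.05), with the reported value as a bar. Asns stays between -0.75 and -0.51 and is red throughout, Shmt2 lies between -0.35 and -0.25 and is red in 7 of 16, Mthfd2 has its single open triangle over a red one at -0.36, and Sesn2 scatters around 0.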

How the data were processed

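The members and gene lists were chosen with earlier results of these data known. Per the labels' protocols, 100 ng of RNA went into each library, sequenced single-end on a NextSeq. TopHat2 2.0.7, DESeq, mm10 and GRCm38 are named in the submitters' processing notes, and no source used here gives the counting program, the annotation or the use of strand. The authors deposited raw counts per Ensembl gene, used for the main test, and a table of log2 values, each column being the log2 of the counts plus a constant, with values under 0 listed as 0. Symbols were matched by identifier for 45106 genes, and positions and exon lengths came from GENCODE M21 (GRCm38).

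The count test was edgeR 4.0.16 (R 4.3.3): robust quasi-likelihood F test, TMM factors, filterByExpr (minimum count 10, minimum total 15), genotype alone in the model and Benjamini-Hochberg adjustment over 12011 genes, threshold 0.05. SE values are |log2 fold change| over the root of F, and intervals are 95%. The scripts were tested on simulated data. Alternatives were RLE and upper-quartile factors, no filter, a filter keeping genes with 1 CPM or more in 3 or more libraries, DESeq2 1.42.0, voom (limma 3.58.1), limma on log2(value + 1) of the authors' values, the replicate number as a block, thinning, leaving out each library, and, added after seeing the data, offsets for transcript length and GC. Named genes were the members, their paralogs, Gdf15 and up to 3 per direction with the smallest adjusted p in each list, the cell cycle list being given as counts. Some genes that this rule gives are not reported here. Promoter sequences are RefSeq's (GRCm38.p6). Counting errors cover counting only.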

Additional observations from a re-analysis of the deposited data

How the results depend on the processing

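The sign of Asns, Mthfd2, Psat1 and Shmt2 held in all 16 alternatives. No member was called higher in any of them. With 1 library left out, the members called lower ranged from 1 (without WT replicate 1) to 3. They were 2 or 3 in the other settings. Members without overlap ranged from 4 to 7 (without WT replicate 3) with 1 library left out and were 3 with no filter. The share of all tested genes without overlap was taken in the main fit alone (36.9%). Groups with fewer libraries overlap less readily, so these counts are not read as a result on the members. Genes called over all genes ranged from 1286 (without WT replicate 1) to 2607 (without WT replicate 3) with 1 library left out. With the replicate number as a block, 1375 genes and 2 members were called; Asns and Mthfd2 kept their calls (adjusted p = 0.0056 and 0.0333) and Shmt2 did not (0.125), nor did Nupr1, Slc7a11, Dld, Cars, Yars or Ern1. The correlations of same-numbered deviations from the group mean were 0.053, -0.275 and -0.259, and those of differently numbered libraries ran from -0.108 to 0.307. Deviations from a mean of 3 libraries are bound to one another, so these values cannot decide whether equal numbers mark pairs. Signs turned, always short of the threshold, as follows. With length and GC offsets, Atf4 was at 0.0116, Ddit3 at 0.15, Chac1 at 0.0204, Sesn2 at 0.0035 and Chac2 at 0.0143. After thinning, Ddit3 was at 0.0894 and Chac1 at 0.0809. Sesn2 was at 0.0026 with the CPM filter, 0.0262 with limma on the authors' values, 0.0073 with no filter and 0.0183 with the block. With 1 library left out, Sesn2 ranged from -0.0684 to 0.1446, Ddit3 from -0.1038 to 0.0929, Trib3 from -0.0712 to 0.3021, Chac1 from -0.326 to 0.0732 and Phgdh from -0.4862 to 0.0089; the cause was not tested. Counting errors were largest for Chac1 and Phgdh, at up to 30.2% and 12.8% in a library. Phgdh varied by more than its counting error over the WT libraries, with an SD of 32.7% of the mean.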
